A study of Mus musculus with 18 samples.

Results

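The genes for 10 haematopoietic lineage transcription factors, Gata1, Gata2, Lyl1, Tal1, Mitf, Gfi1, Runx1, Spi1, Cebpa and Ikzf1, were followed across mouse bone marrow-derived mast cells. Every probe annotated to these names was taken, 18 of the 45281 on the array, and 16 passed the filter on dim probes, so that each of the 10 genes was among the 10529 genes tested. The cells came from C57BL/6J mice aged 4 to 6 weeks, either wild type (WT) or ST2 knockout (ST2KO), a genotype without the chain through which cells sense the cytokine IL-33. Each genotype was studied without stimulus, after 4 h of IgE activation and after 4 h of IL-33, which made 6 groups of 3 Illumina bead arrays, 18 arrays in all. No antigen or dose is named in the sources used here, nor how the ST2 knockout was made, and any difference that arose while the cells were grown from marrow is part of the genotype comparison. The labels do not say whether arrays of a group came from separate mice or cultures, so p-values measure the spread between these arrays only, and the number of arrays limits the precision.

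Mast cells arise from blood progenitors under the control of a small set of DNA-binding proteins. GATA2 and GATA1 bind GATA sequences and act together with TAL1 or LYL1, a closely related pair of basic helix-loop-helix proteins, through the bridging proteins LMO2 and LDB1. MITF drives protease, Kit and other mast cell genes, RUNX1, PU.1 (the product of Spi1), C/EBP alpha (Cebpa) and Ikaros (Ikzf1) direct progenitors towards blood lineages, and GFI1 is a zinc finger repressor. In mast cells PU.1 and GATA2 work side by side, whereas C/EBP alpha favours the basophil and granulocyte lineages. IL-33 acts through ST2 and NF-kB, and IgE through its high-affinity receptor, and the comparisons ask how each stimulus moved the messenger RNA of these factors with and without ST2.

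Lyl1 and Gfi1 were the members with the largest changes, and their upstream sequences are printed because both fell with IL-33. The windows hold the 250 bases before each RefSeq transcript start (GRCm38.p6), 5′ to 3′ on the gene's strand, with 1 start for Lyl1 on chromosome 8 and 2 starts for Gfi1 on chromosome 5. Capitals mark matches to 5 motif sets searched on both strands: GATA (NGATAN, with A or T first and A or G last), the E-box CANNTG bound by helix-loop-helix proteins, the PU.1 core GAGGAA, RUNX (TGNGGT, with T or C in the open position) and the NF-kB motif.
Lyl1, chr8:84701207-84701456, plus strand: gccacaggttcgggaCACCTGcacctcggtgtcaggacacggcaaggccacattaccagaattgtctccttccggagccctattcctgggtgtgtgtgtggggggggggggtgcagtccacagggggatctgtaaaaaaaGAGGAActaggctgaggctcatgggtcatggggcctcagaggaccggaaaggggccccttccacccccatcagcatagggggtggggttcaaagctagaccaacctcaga
Gfi1, chr5:107724344-107724593, minus strand: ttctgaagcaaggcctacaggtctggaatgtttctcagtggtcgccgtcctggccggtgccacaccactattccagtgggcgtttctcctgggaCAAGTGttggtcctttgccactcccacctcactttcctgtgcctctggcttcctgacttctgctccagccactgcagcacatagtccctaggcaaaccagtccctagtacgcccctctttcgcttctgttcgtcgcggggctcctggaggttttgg
Gfi1, chr5:107725806-107726055, minus strand: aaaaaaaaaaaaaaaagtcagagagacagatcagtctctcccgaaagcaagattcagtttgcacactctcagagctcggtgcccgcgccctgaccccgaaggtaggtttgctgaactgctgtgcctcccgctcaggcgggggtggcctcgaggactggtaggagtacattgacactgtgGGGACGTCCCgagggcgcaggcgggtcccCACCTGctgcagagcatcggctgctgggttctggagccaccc
The Lyl1 window holds an E-box match that begins 235 bases before the start and a PU.1 match at 110 bases. The upstream Gfi1 window, at 107725806 to 107726055, holds an NF-kB match at 71 bases and an E-box at 42 bases, and the other holds an E-box at 156 bases. Entries were matched for 9 of the 10 genes, with 16 windows. An NF-kB match lay in 3 of the 16 windows, against 7.25% of 32851 such windows over all genes. E-boxes lay in 6 of 16 (66.2% of all windows), PU.1 matches in 4 of 16 (23.3%), GATA matches in 3 of 16 (26.5%) and RUNX matches in 1 of 16 (18.6%). These matches describe letters in the windows, not bound sites.

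Between 15911 and 17490 probes had a detection p under 0.05 on each of the 17 complete arrays, with a median intensity of 86.4 to 97.9. The array of ST2KO with IgE, replicate 3, held an intensity for 10012 of the 45281 probes and for none of the 18 member probes, so every member value on it was placed from the rank order in the authors' log2 table. The ST2 gene Il1rl1 was not analysed here, because no probe carries its name in the gene table, and the genotype labels were not checked on it. All 10 mast cell markers, Kit, Fcer1a and Cpa3 among them, were detected on 17 of 17 complete arrays. The 6 arrays numbered 3 stood apart from the 12 others in markers of 5 other cell types, and overlapped them in 2. Summed macrophage and dendritic cell markers (8 of 13 measured) ran from 407 to 1242 on the 12 arrays and from 1508 to 6385 on the 6, on a linear normalized scale. The 1 measured lymphocyte marker, Cd79b, ran from 20.1 to 69.0 against 403 to 866, and the 1 measured eosinophil marker, Ccr3, from 20.8 to 62.3 against 81.3 to 358. Erythroid markers (3 of 7 measured) were lower on the arrays numbered 3, 76.7 to 91.3 against 149 to 248, as were megakaryocyte markers (4 of 6), 1413 to 2632 against 2949 to 5818. The megakaryocyte sum is mostly Itga2b, at log2 levels of 10.27 to 12.47 over all arrays, against 5.64 to 7.61 for Gp9. Basophil marker sums (3 of 4) overlapped, 5200 to 6693 against 6508 to 8384, as did neutrophil sums (2 of 10), 38.2 to 72.4 against 42.6 to 84.0. The basophil sum is mostly Cd200r3, at log2 levels of 11.96 to 12.85 over all arrays. It says little about Mcpt8, which ran from 6.01 to 10.33, or Prss34, from 4.67 to 10.22. Defining markers of neutrophils (S100a8, S100a9) and eosinophils (Epx, Prg2) were detected on 0 arrays. Of the macrophage and dendritic cell list, C1qb and Mrc1 were also detected on 0 arrays, Csf1r on 12 and Adgre1 on 17. The highest log2 levels in that list were 11.71 for Cd74 and 11.30 for H2-Ab1, against 8.65 for Adgre1. Mast cell marker sums overlapped, from 138950 to 160910 on the 12 and from 153380 to 176740 on the 6. That sum rests mostly on the brightest markers, such as Cma1 at log2 levels of 14.92 to 15.19 over all arrays. Dimmer ones varied more, Mcpt4 from 6.98 to 14.63 and Tpsab1 from 7.04 to 10.97.

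**Figure D1:**
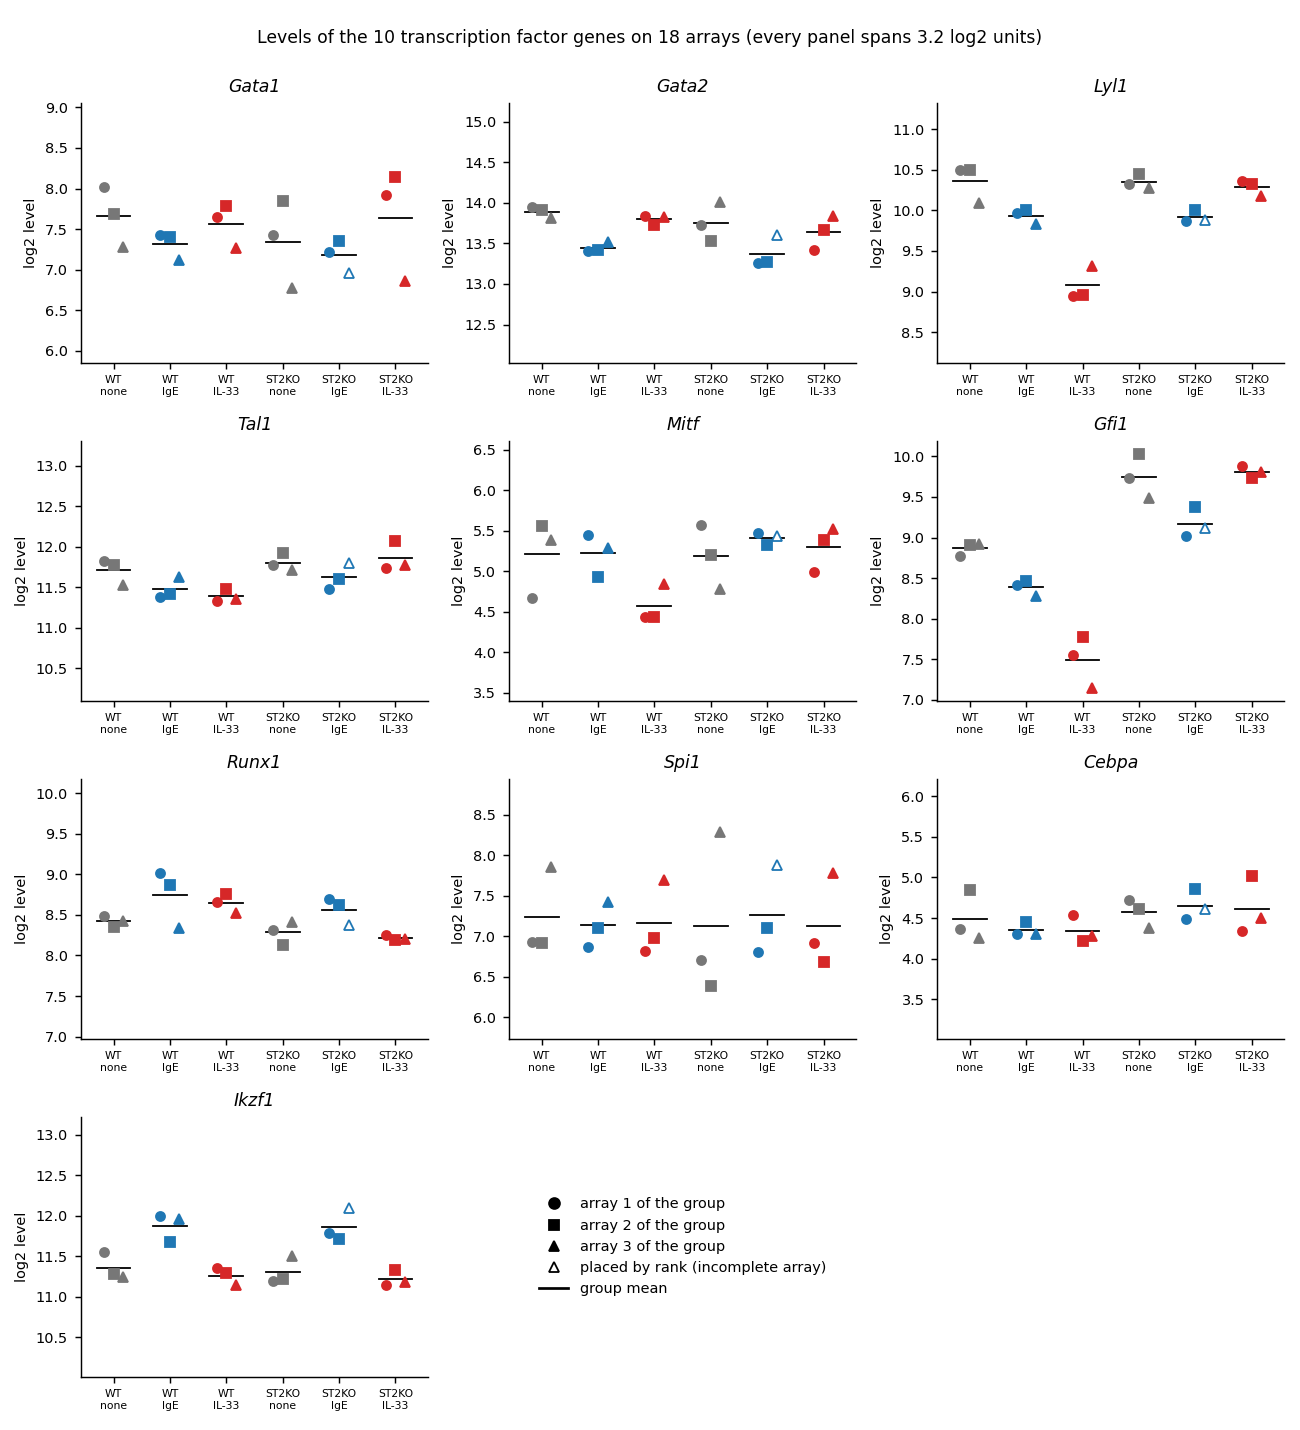
Normalized log2 level of each of the 10 genes on each of 18 arrays, by genotype and stimulus; symbols show the array number, open symbols the values placed by rank, and black bars the group means of 3 arrays. Lyl1 and Gfi1 lie lowest in WT cells with IL-33, Gfi1 lies higher in all ST2KO groups, and the arrays numbered 3 lie highest for Spi1 and lowest for the drawn, brighter Gata1 probe in all 6 groups.

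Lyl1 fell sharply when WT cells met IL-33. Its log2 level was 10.50, 10.50 and 10.10 in unstimulated WT cells and 8.94, 8.96 and 9.32 after IL-33. The groups did not overlap, and the difference was larger than the spread between arrays: Lyl1 fell by 1.29 (SE 0.13) on the log2 scale, 2.45-fold, with a limma adjusted p of 5e-05. With IgE the 3 WT arrays read 9.96, 10.005 and 9.83, which lay between the other WT groups. That IgE change was smaller, a fall of 0.43 (SE 0.13; adjusted p = 0.0463), and IL-33 against IgE gave a fall of 0.86 (SE 0.13; adjusted p = 0.00123). Because fewer cells of a type and less RNA per cell cannot be told apart in bulk samples, each such value is a level per unit of total RNA.

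In ST2KO cells Lyl1 read 10.33, 10.45 and 10.27 unstimulated, 9.87, 10.003 and 9.88 with IgE, and 10.36, 10.33 and 10.17 with IL-33. The IL-33 and unstimulated arrays overlapped, with a difference of -0.06 (95% interval -0.35 to 0.22), while IgE gave a fall of 0.43 (SE 0.13; limma adjusted p = 0.0452). The IL-33 response differed between the genotypes by 1.23 (SE 0.19; adjusted p = 0.00483), and the IgE response by 0.00 (95% interval -0.40 to 0.40). From high to low, the group means were 10.37 for WT unstimulated, 10.35 for ST2KO unstimulated, 10.29 for ST2KO with IL-33, 9.93 for WT with IgE, 9.92 for ST2KO with IgE and 9.07 for WT with IL-33. The 3 highest groups overlapped one another, as did both IgE groups, and WT with IL-33 lay below all other arrays.

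The IL-33 calls of Lyl1 passed without each array in turn, whereas its IgE calls lay close to the threshold and were lost without most single arrays while the fall stayed at similar size, from -0.57 to -0.36 in WT and from -0.47 to -0.38 in ST2KO cells. In WT cells the IgE call was lost without unstimulated replicate 1 (adjusted p = 0.165) or 2 (0.161), and without IgE replicate 1 (0.11), 2 (0.0953) or 3 (0.119). Without unstimulated replicate 3 it held. In ST2KO cells it was lost without unstimulated replicate 1 (0.0885), 2 (0.144) or 3 (0.0674) and without IgE replicate 1 (0.139), 2 (0.084) or 3 (0.0807). With the replicate number as a block the adjusted p was 0.0174 in WT and 0.0168 in ST2KO cells.

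Gfi1 showed the widest range of the 10 genes, 2.89 log2 units over the 18 arrays. In WT cells it read 8.77, 8.90 and 8.92 unstimulated, 8.41, 8.46 and 8.28 with IgE, and 7.56, 7.78 and 7.14 with IL-33. These 3 groups did not overlap, and IL-33 gave a fall of 1.37 (SE 0.17), 2.59-fold, with a limma adjusted p of 0.000141. The IgE fall in WT cells, 0.48 (SE 0.17), did not pass at an adjusted p of 0.0777 and passed with the replicate block at 0.0181. IL-33 against IgE gave a fall of 0.89 (SE 0.17; adjusted p = 0.0057).

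In ST2KO cells Gfi1 read 9.73, 10.03 and 9.49 unstimulated, 9.02, 9.38 and 9.12 with IgE, and 9.88, 9.73 and 9.81 with IL-33. Each ST2KO array lay above all 9 WT arrays. IgE gave a fall of 0.58 (SE 0.17; limma adjusted p = 0.0355) and IL-33 a difference of 0.05 (95% interval -0.31 to 0.41). The IL-33 response differed between genotypes by 1.43 (SE 0.24; adjusted p = 0.0066), and the IgE response by -0.10 (95% interval -0.61 to 0.41). The ST2KO IgE call was lost without unstimulated replicate 1 (0.076) or 2 (0.15) and without IgE replicate 1 (0.14) or 3 (0.0667). With the replicate block and all arrays its limma adjusted p was 0.00555. The group order ran from ST2KO with IL-33 (mean 9.81) and ST2KO unstimulated (9.75), which overlapped, through ST2KO with IgE (9.17), WT unstimulated (8.87) and WT with IgE (8.38) to WT with IL-33 (7.49).

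The level of Gfi1 thus also differed with genotype when no stimulus was given. Unstimulated ST2KO exceeded WT by 0.89 (SE 0.17), 1.85-fold, with no overlap, but across all genes the limma adjusted p was 0.198, and with the replicate block it was 0.0105. With IgE the ST2KO excess was 0.79 (SE 0.17; adjusted p = 0.397, and 0.0331 with the block). With IL-33 it reached 2.31 (SE 0.17), 4.98-fold (adjusted p = 3.33e-06). The comparisons between genotypes under each stimulus were added after the Gfi1 levels had been seen, so they describe that pattern.

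**Figure D2:**
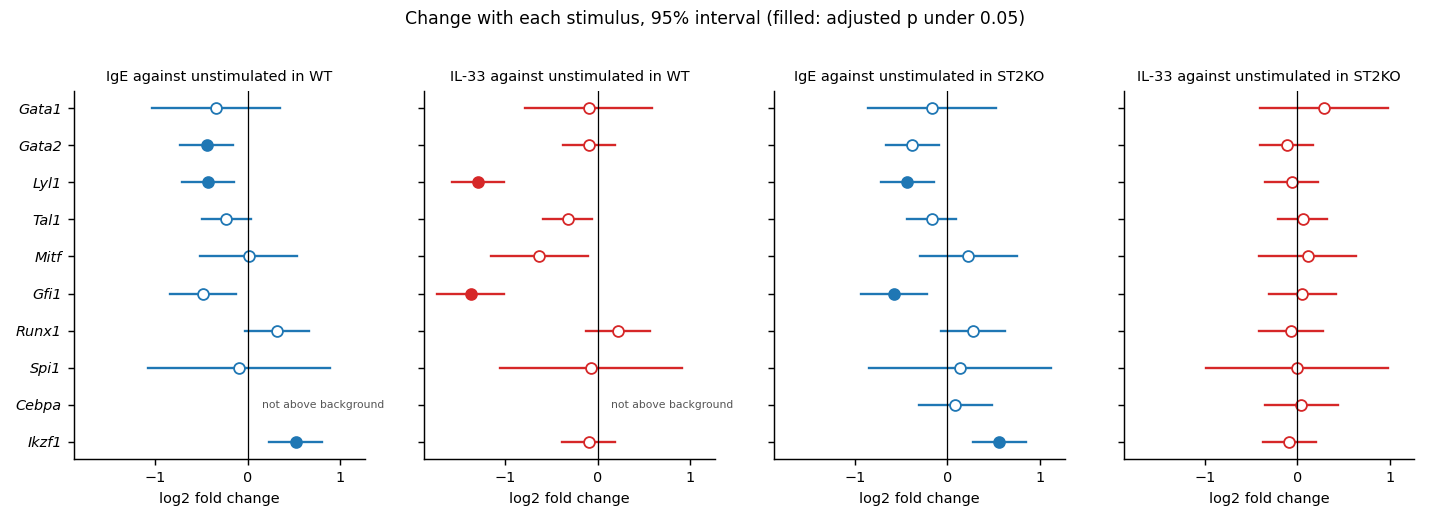
Fold change on the log2 scale of the 10 genes with IgE or IL-33 against unstimulated cells of the same genotype, with 95% intervals; filled points have an adjusted p under 0.05 in limma, and Cebpa is not drawn in WT cells, where it was not above background in either stimulated group. Lyl1 and Gfi1 lie at -1.29 and -1.37 with IL-33 in WT cells and at -0.06 and 0.05 in ST2KO cells.

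Gata2 and Ikzf1 moved with IgE, in opposite directions. Gata2, the GATA factor that maintains progenitors and mast cells, read 13.94, 13.91 and 13.81 in unstimulated WT cells, 13.40, 13.43 and 13.52 with IgE and 13.84, 13.72 and 13.83 with IL-33. The IgE arrays lay below both other WT groups, a fall of 0.44 (SE 0.13; limma adjusted p = 0.0432) against unstimulated cells, while IL-33 gave -0.09 (95% interval -0.38 to 0.19). IL-33 exceeded IgE by 0.35 (SE 0.13), with an adjusted p of 0.199 and of 0.0135 with the replicate block.

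In ST2KO cells Gata2 read 13.72, 13.54 and 14.01 unstimulated, 13.26, 13.27 and 13.60 with IgE and 13.42, 13.67 and 13.84 with IL-33. These groups overlapped, and the IgE difference of -0.38 (SE 0.13) had a limma adjusted p of 0.0776, which passed with the replicate block (0.00398) and without IgE replicate 3, the array placed by rank (0.0273). Without the block, the WT call for Gata2 did not survive the loss of any array: the adjusted p was 0.126, 0.116 and 0.0659 without unstimulated replicates 1, 2 and 3, and 0.134, 0.134 and 0.0574 without IgE replicates 1, 2 and 3. With the replicate block and all arrays that WT call had a limma adjusted p of 0.00127.

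Ikzf1, which encodes the zinc finger protein Ikaros, rose with IgE in both genotypes. Its brightest probe read 11.55, 11.28 and 11.24 in unstimulated WT cells, 11.99, 11.68 and 11.96 with IgE and 11.35, 11.29 and 11.14 with IL-33. The IgE arrays lay above both other groups, with a rise of 0.52 (SE 0.13; limma adjusted p = 0.0205), and IL-33 against IgE gave a fall of 0.62 (SE 0.13; adjusted p = 0.0145). In ST2KO cells the arrays read 11.20, 11.22 and 11.50 unstimulated, 11.79, 11.71 and 12.09 with IgE and 11.14, 11.33 and 11.19 with IL-33. IgE gave a rise of 0.56 (SE 0.13; adjusted p = 0.0139) with no overlap, and the IgE response differed between genotypes by 0.04 (95% interval -0.37 to 0.44).

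The Ikzf1 rise in WT cells was lost without unstimulated replicate 2 (limma adjusted p = 0.0787) or 3 (0.0743) and without IgE replicate 1 (0.0947) or 3 (0.0569). In ST2KO cells it was lost without unstimulated replicate 1 (0.0551) or 2 (0.0584), and the fall from IgE to IL-33 without WT IgE replicate 1 (0.0858). Those fits did not use the block. With the replicate block and all arrays the limma adjusted p of the rise was 0.00155 in WT and 0.000858 in ST2KO cells. That of the fall from IgE to IL-33 was 0.000785. The array carries 6 Ikzf1 probes, of which 5 were kept. In the fit over all kept probes, the brightest alone passed in WT cells with IgE. The 4 others gave 0.34, 0.43, 0.59 and -0.11 there, and 0.39, 0.47, 0.46 and 0.47 in ST2KO cells. With the replicate block the probes at 0.43 (adjusted p = 0.0252) and 0.59 (0.0236) passed in WT cells, and those at 0.39 (0.0469) and 0.47 (0.0146) in ST2KO cells. With the mean of the 5 probes the IgE rise was 0.35 (adjusted p = 0.243) in WT and 0.47 (adjusted p = 0.108) in ST2KO cells, and the fall from IgE to IL-33 was -0.41 (adjusted p = 0.301).

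**Figure D3:**
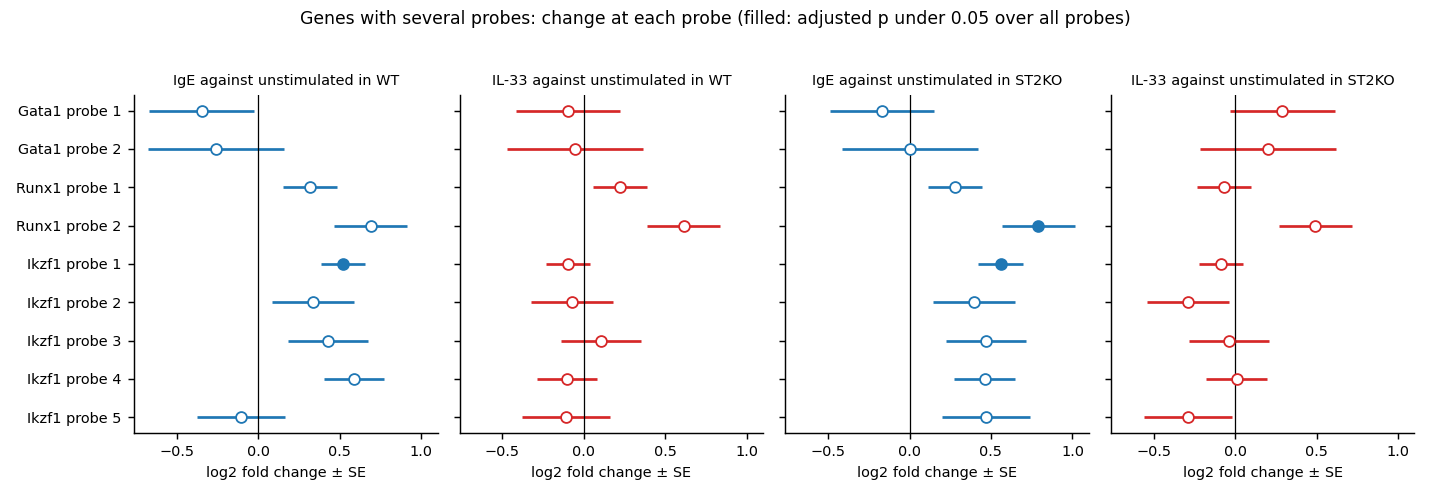
Fold change on the log2 scale (points, with bars of 1 SE) at each kept probe of Gata1, Runx1 and Ikzf1, the genes with more than 1 kept probe, brightest probe first; filled points have an adjusted p under 0.05 over all kept probes. Of the 5 Ikzf1 probes, 4 lie above 0 with IgE in WT cells and 5 in ST2KO cells.

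Tal1 and Runx1 differed less between groups. Tal1, the partner of GATA factors, read 11.82, 11.78 and 11.53 in unstimulated WT cells, 11.38, 11.42 and 11.63 with IgE and 11.33, 11.48 and 11.35 with IL-33. The IL-33 arrays lay below the unstimulated ones by 0.32 (SE 0.12), with a limma adjusted p of 0.113 and of 0.0439 with the replicate block. In ST2KO cells Tal1 read 11.77, 11.92 and 11.71 unstimulated, 11.48, 11.60 and 11.80 with IgE and 11.73, 12.07 and 11.77 with IL-33. Under IL-33 the ST2KO arrays lay above the WT arrays by 0.47 (SE 0.12; adjusted p = 0.0235). That call was lost without WT IL-33 replicate 1 (0.0997) or ST2KO IL-33 replicate 2 (0.103), and had a limma adjusted p of 0.00618 with the replicate block and all arrays. The IL-33 response itself differed between genotypes by 0.38 (SE 0.18), which did not pass (adjusted p = 0.333).

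Runx1, which encodes the DNA-binding partner of CBFB, had 2 kept probes. The brighter read 8.36 to 8.49 in unstimulated WT cells, 8.33 to 9.02 with IgE, where replicate 3 was the low array, and 8.52 to 8.76 with IL-33. None of the planned comparisons passed at this probe: IgE gave 0.32 (SE 0.16; limma adjusted p = 0.235) in WT and 0.28 (SE 0.16; adjusted p = 0.291) in ST2KO cells. Without WT IgE replicate 3 the former was 0.52 (adjusted p = 0.03). With IL-33, ST2KO lay below WT by 0.43 (SE 0.16), with no overlap (adjusted p = 0.106, and 0.0384 with the block). The dimmer Runx1 probe, designed on another transcript record, gave larger values in the fit over all kept probes, 0.69 (adjusted p = 0.064, and 0.0232 with the block) with IgE in WT cells and 0.79 (adjusted p = 0.0348) in ST2KO cells, where it was detected on 2 of 3 unstimulated arrays. With IL-33 in WT cells it gave 0.61 (adjusted p = 0.101, and 0.0432 with the block). In ST2KO cells IL-33 gave 0.49 at this probe, with no overlap, which did not pass. Its IL-33 response differed between genotypes by -0.12 (limma adjusted p = 0.928).

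Mitf, a helix-loop-helix zipper regulator of mast cell genes, gave signal close to background at its probes. Which Mitf transcripts they report was not examined, so the values describe the probes and not all Mitf RNA. Of the 2 Mitf probes, 1 was detected on 0 arrays and the other on 15 of 17. That probe read 4.68 to 5.56 in unstimulated WT cells, 4.93 to 5.44 with IgE and 4.44 to 4.84 with IL-33, where 1 of 3 arrays, replicate 3, detected it. Differences from that group therefore rest mostly on levels not above background. IL-33 gave -0.63 (SE 0.25) in WT cells, which did not pass (limma adjusted p = 0.114) and passed without unstimulated replicate 1 (adjusted p = 0.0348). With IL-33 the ST2KO arrays read 4.99 to 5.52, all 3 detected, and the difference from the WT arrays had an adjusted p of 0.0717, or 0.0381 with the block.

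Spi1, Gata1 and Cebpa passed in none of the 10 comparisons, and the levels of Spi1 and Gata1 differed with the array number. Spi1 read 6.93, 6.92 and 7.85 in unstimulated WT cells, and 6.70, 6.39 and 8.29 in unstimulated ST2KO cells. On the array numbered 3 it was higher than the mean of the other arrays in 6 of 6 groups, by 0.44 to 1.75. Gata1, which acts in erythroid cells, megakaryocytes, eosinophils and mast cells, was lower there at its brighter probe in 6 of 6 groups, with differences from -1.17 to -0.29, and at its dimmer probe in 5 of 6 groups, from -1.62 to 0.20, where WT with IgE was the exception. Those are the arrays with the higher macrophage and dendritic cell marker sums and the lower erythroid and megakaryocyte marker sums given above, and the part of such cells in either result was not tested. For Spi1 the IL-33 difference in WT cells was -0.07, with a wide 95% interval of -1.05 to 0.92. That interval does not use the array number: the SE was 0.46, and 0.19 with the replicate block.

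**Figure D4:**
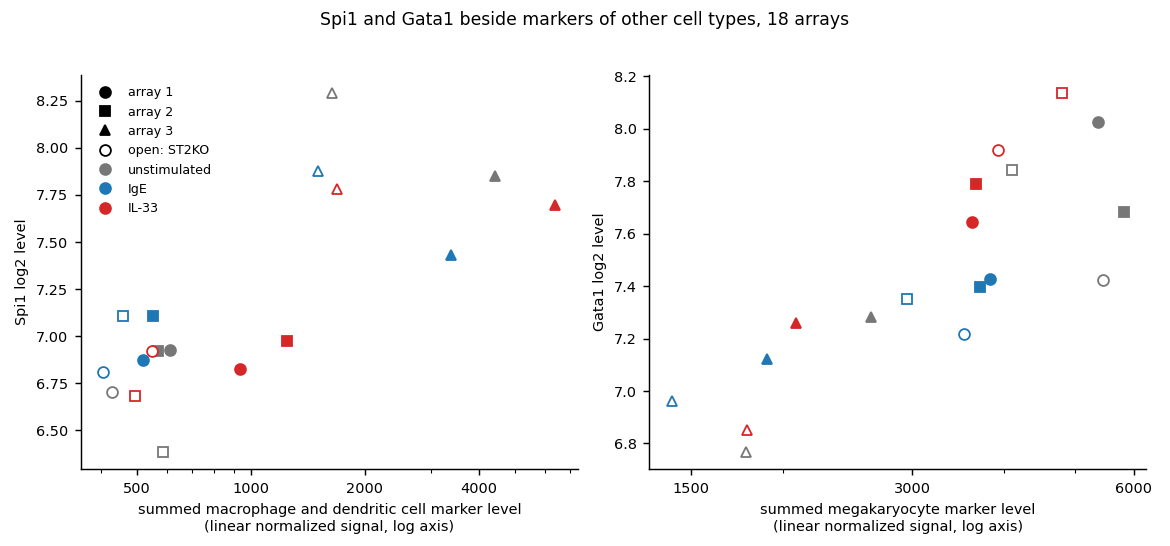
Log2 level of Spi1 (left) against the summed level of 8 macrophage and dendritic cell markers, and of Gata1 (right) against the summed level of 4 megakaryocyte markers, on 18 arrays with a log horizontal axis; filled symbols are WT and open symbols ST2KO. The 6 arrays numbered 3 (triangles) lie apart at 1508 to 6385 on the left and at 1413 to 2632 on the right. The sum on the right is mostly Itga2b.

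Cebpa was detected on 4 of 17 complete arrays and on 0 of 3 arrays of WT cells with IgE or with IL-33, so it was not above background there and no fold is given. Its levels over all arrays ran from 4.21 to 5.01. Both Gata1 probes were detected on all 17, and the brighter read 7.28 to 8.02 in unstimulated WT cells and 6.77 to 7.84 in unstimulated ST2KO cells. The IL-33 difference of Gata1 in WT cells was -0.10 (95% interval -0.79 to 0.59). Its SE was 0.32, and 0.175 with the replicate block.

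Without the 6 arrays numbered 3, which stood apart in their markers, each call of a member kept its direction and further members passed in limma. Lyl1 then fell by 1.55 (adjusted p = 6.04e-11) and Gfi1 by 1.17 (adjusted p = 5.71e-07) with IL-33 in WT cells, and the IL-33 responses differed between genotypes by 1.503 (adjusted p = 1.08e-07) for Lyl1 and 1.09 for Gfi1 (adjusted p = 0.000301), where 24.3% of all genes passed. With IgE in WT cells 6 members passed, where 37.2% of all genes did: Gata2 (-0.51; 0.000458), Lyl1 (-0.52; 0.000616), Tal1 (-0.40; 0.00735) and Gfi1 (-0.40; 0.0339) fell, and Runx1 (0.52; 0.00382) and Ikzf1 (0.42; 0.00677) rose. In ST2KO cells the same 6 genes passed in the same directions, where 36.9% of all genes passed. Unstimulated Gfi1 was higher in ST2KO than in WT by 1.05 (adjusted p = 4.49e-05), where 5.06% passed. With IL-33 in WT cells, where 38.6% of all genes passed, Tal1 fell as well (-0.39; 0.00841). No value is given for Mitf there, since neither remaining IL-33 array detected it.

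Counts over the 10 members are set beside all 10529 genes, and a member share of 20% or 30% stands on 2 or 3 genes. With IgE in WT cells 1 of 10 rose and 2 fell, where 11.9% of all genes passed, and in ST2KO cells 1 rose and 2 fell, where 12.6% passed. With IL-33 in WT cells 2 fell, where 11.8% passed, and IL-33 against IgE gave 3 falls, where 4.43% passed. In ST2KO cells 0 members passed with IL-33 in limma, as did 0% of all genes (0 members and 155 genes had an unadjusted p under 0.05). With the replicate block 0 members and 0% of all genes passed there as well. All unadjusted counts come from the fit without the block, whose spread includes the differences between array numbers. Small counts therefore do not show that nothing changed. For ST2KO against WT without stimulation 0 members passed, where 0.0095% of all genes did (1 member and 339 genes at an unadjusted p under 0.05). The IgE response differed between genotypes for 0 members and 0% of all genes (0 members and 133 genes at an unadjusted p under 0.05), and the IL-33 response for 2 members, where 2.72% passed. In the added genotype comparisons 0 members passed with IgE (0.0095% of all genes, with 1 member and 294 genes at an unadjusted p under 0.05), and 3 rose with IL-33 (11.6%), where the replicate block gave 4 rises and 1 fall among the members and 27.7% of all genes passed. With the block 1 member, Gfi1, passed in each of the other genotype comparisons, where 0.199% of all genes passed without stimulus and 0.133% with IgE. The block raised the share of all genes to 32.5% with IgE and 31.5% with IL-33 in WT cells, and to 15.6% for the genotype difference of the IL-33 response, and the blocked counts of the gene lists stand beside these shares. These shares moved with single arrays: with 1 array left out, the number of all genes that passed ran from 594 to 1243 for IgE in WT cells (1249 with all arrays), from 624 to 1727 for IL-33 in WT cells (1246) and from 224 to 486 for IL-33 against IgE (466). It ran from 658 to 1600 for IgE in ST2KO cells (1326), from 99 to 577 for the genotype difference of the IL-33 response (286) and from 573 to 1720 for ST2KO against WT with IL-33 (1217). The median change of the 10 members was -0.18 with IgE and -0.12 with IL-33 in WT cells, beside -0.03 and -0.02 over all genes. Comparisons within a genotype share their unstimulated arrays, so their values are set side by side only.

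Of genes for proteins that build complexes with GATA and TAL factors, 20% passed with IgE and 10% with IL-33 in WT cells. Among all genes 11.9% and 11.8% passed. Of 20 measured genes of 24 listed, 1 rose and 3 fell with IgE in WT cells, or 3 and 6 with the replicate block; the median was -0.03. Id2, an inhibitor of helix-loop-helix proteins, rose by 0.80 (SE 0.11; limma adjusted p = 0.000259), and the corepressor gene Cbfa2t3 fell by 1.18 (SE 0.20; adjusted p = 0.00129). Lmo4 fell by 2.30 (SE 0.62; adjusted p = 0.0261), and Gfi1b, the close relative of Gfi1, fell by 0.50 (SE 0.14; adjusted p = 0.0305). With IL-33 in WT cells 0 rose and 2 fell, or 0 and 5 with the block; the median was -0.22. Lmo2, the bridge between GATA and TAL proteins, fell by 1.70 (SE 0.30; adjusted p = 0.00204), and Cbfa2t3 fell by 0.89 (SE 0.20; adjusted p = 0.00798). Ldb1, the other bridging gene, had -0.61 (adjusted p = 0.0554) with IgE and -0.59 (adjusted p = 0.0637) with IL-33; with the replicate block these passed at 0.000384 and 0.000504. Megakaryocyte marker sums were lower with both stimuli in WT cells: they read 5360, 5818 and 2632 unstimulated, 3826, 3710 and 1903 with IgE and 3621, 3660 and 2086 with IL-33 on the arrays numbered 1, 2 and 3. In ST2KO cells they read 5453, 4104 and 1781 unstimulated, 3532, 2949 and 1413 with IgE and 3922.5, 4795.5 and 1788.3 with IL-33. In WT cells the log2 group means of Itga2b were 12.01 unstimulated, 11.46 with IgE and 11.46 with IL-33. In the same order Gp9 had 7.10, 6.47 and 7.08, Pf4 4.40, 4.60 and 4.64, and Ppbp 4.61, 4.49 and 4.34. Pf4 was detected on 6 and Ppbp on 3 of 17 complete arrays. Of those 4 markers 0 passed in limma with either stimulus in WT cells (0 at an unadjusted p under 0.05), and 1 fell with the block with each, and the part of such cells in the falls of partner genes was not tested. In ST2KO cells Id2 rose by 0.97 (adjusted p = 6.9e-05) and Cbfa2t3 fell by 1.05 (adjusted p = 0.00315) with IgE. With IL-33 in ST2KO cells 0 of the 20 passed (0 at an unadjusted p under 0.05), and in the genotype difference of the IL-33 response 0 passed (3 at an unadjusted p under 0.05), or 4 with the block.

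Relatives of RUNX1, PU.1 and C/EBP alpha rose where they passed in WT cells. Of 14 measured genes of 18 listed, 3 rose with IgE (median 0.07) and 4 with IL-33 (median 0.52), while the replicate block gave 5 rises and 1 fall with IgE and 6 and 2 with IL-33. Without the block the shares were 21.4% with IgE and 28.6% with IL-33, beside 11.9% and 11.8% of all genes. Etv6, an ETS family repressor, rose by 1.56 (SE 0.26; limma adjusted p = 0.00129) with IgE and by 1.57 (SE 0.26; adjusted p = 0.00114) with IL-33, and its IL-33 response was lower in ST2KO by -1.56 (SE 0.37; adjusted p = 0.0373). Spic, a close relative of Spi1, rose by 2.02 (SE 0.47; adjusted p = 0.0111) and Ets2 by 1.46 (SE 0.37; adjusted p = 0.0191) with IL-33. Ets1 rose by 2.74 (SE 0.77; adjusted p = 0.0306) with IgE, and Cebpg, a dimer partner of C/EBP proteins, by 0.68 (adjusted p = 0.0109) with IgE and 0.59 (adjusted p = 0.0215) with IL-33. Spic was detected on 1 of 3 unstimulated WT arrays and on all 3 with IL-33. Macrophage and dendritic cell marker sums moved the same way with IL-33 in WT cells, from 612 to 933, from 566 to 1242 and from 4414 to 6385 on the arrays numbered 1, 2 and 3. Of those 8 markers 0 passed in limma without the block (0 at an unadjusted p under 0.05) and 4 rose with it, with a median of 0.39; in ST2KO against WT with IL-33 1 was lower, or 4 with the block. The part of such cells in these rises was not tested. Cbfb, the partner of RUNX1, had -0.06 with IgE and -0.35 with IL-33 and did not pass.

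Among relatives and regulators of Mitf, 10 of 12 listed were measured. With IgE in WT cells 0 rose and 1 fell (2 and 1 with the replicate block), and with IL-33 3 rose (3 rises and 2 falls with the block). Without the block the shares were 10% with IgE and 30% with IL-33, beside 11.9% and 11.8% of all genes. Mxd1, a helix-loop-helix zipper antagonist of MYC, fell by 0.57 (SE 0.16; limma adjusted p = 0.0352) with IgE and rose by 1.35 (SE 0.16; adjusted p = 0.000139) with IL-33. Tfe3, a member of the Mitf family, rose by 0.65 (SE 0.14; adjusted p = 0.00716) and Ctnnb1, which encodes beta-catenin, by 0.51 (SE 0.14; adjusted p = 0.0271) with IL-33. The IL-33 responses of Mxd1 (-1.29; adjusted p = 0.00892) and Tfe3 (-0.85; adjusted p = 0.0374) were lower in ST2KO cells. Of the 7 measured Ikaros family and NuRD genes of 11 listed, 0 passed with either stimulus in WT cells by limma, with or without the block (0 with IgE and 0 with IL-33 at an unadjusted p under 0.05). The most abundant of them, Hdac2, had 0.18 (adjusted p = 0.699) with IgE and 0.23 (adjusted p = 0.592) with IL-33.

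Of 19 measured among 31 other haematopoietic transcription factors, 1 rose and 1 fell with IgE in WT cells (1 and 3 with the replicate block), and 2 rose and 4 fell with IL-33 (6 and 5 with the block). Without the block the shares were 10.5% with IgE and 31.6% with IL-33, beside 11.9% and 11.8% of all genes. Nfe2, a regulator of megakaryocyte and erythroid genes, fell by 1.03 (SE 0.26; limma adjusted p = 0.0165) and Batf rose by 1.24 (SE 0.35; adjusted p = 0.0304) with IgE. With IL-33, Batf rose by 2.07 (SE 0.35; adjusted p = 0.00126) and Myb, a progenitor factor, by 1.09 (SE 0.24; adjusted p = 0.00785), while Meis1 fell by 1.18 (SE 0.17; adjusted p = 0.000382) and Hhex by 0.69 (SE 0.14; adjusted p = 0.0048). The Meis1 response to IL-33 differed between genotypes by 0.99 (SE 0.24; adjusted p = 0.0406).

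Mast cell genes known as targets of GATA factors or Mitf passed in small numbers without the replicate block and in larger numbers with it. Of 23 measured genes of 26 listed, 1 rose and 2 fell with IgE and 3 rose with IL-33 in WT cells, with medians of -0.01 and -0.20. The share was 13% with each stimulus, beside 11.9% of all genes with IgE and 11.8% with IL-33. The replicate block gave 4 rises and 8 falls with each stimulus, where 32.5% of all genes passed with IgE and 31.5% with IL-33. Hdc, which makes histamine, rose by 2.77 (SE 0.36; limma adjusted p = 0.00026) with IgE and by 2.42 (SE 0.36; adjusted p = 0.000571) with IL-33. Tph1, of serotonin synthesis, fell by 0.61 (adjusted p = 0.0315) with IgE and rose by 0.91 (adjusted p = 0.00306) with IL-33. Ms4a2, the beta chain of the IgE receptor, fell by 0.88 (SE 0.23; adjusted p = 0.0211) with IgE, and the tryptase gene Tpsab1 rose by 2.42 (SE 0.58; adjusted p = 0.0134) with IL-33. Cma1 and Cpa3, abundant granule protease genes, had differences of 0.10 and 0.06 with IgE and of 0.09 and 0.00 with IL-33.

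**Figure D5:**
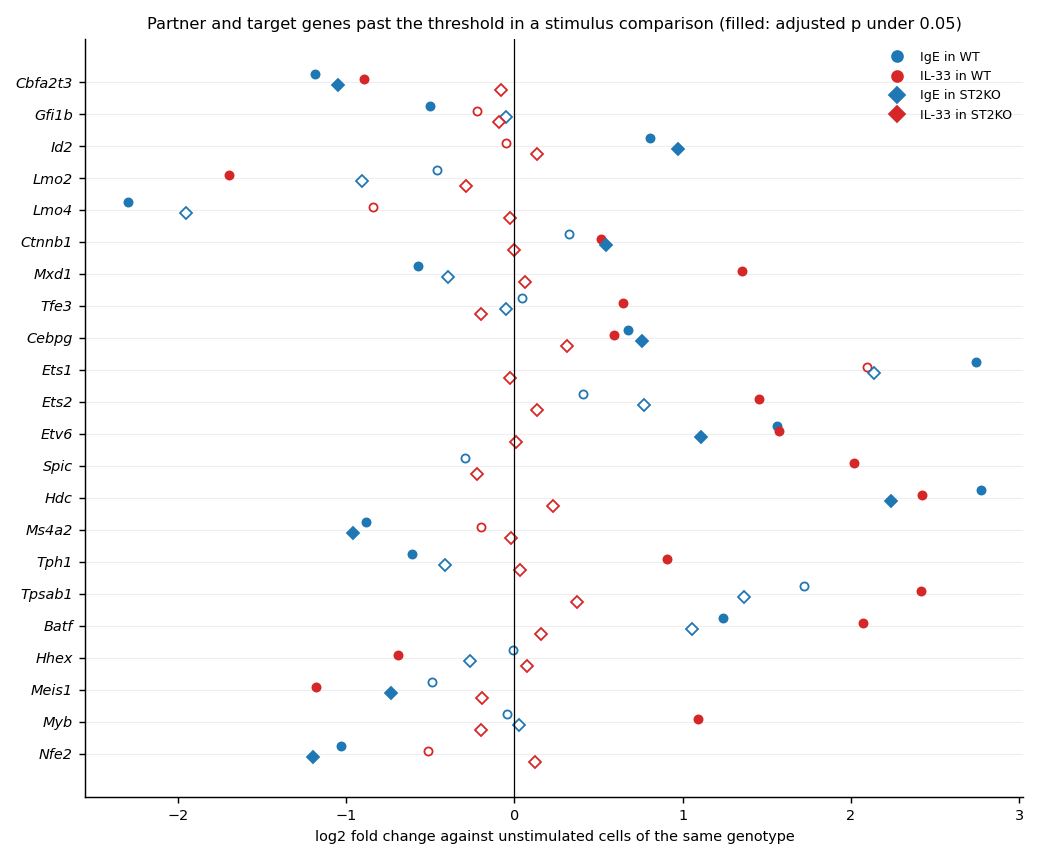
Fold change on the log2 scale against unstimulated cells of the same genotype for 22 partner, relative and target genes. Each was among the smallest adjusted p-values of its list in a stimulus comparison. A point is left out where no array of a compared group detected the gene. Circles are WT, diamonds ST2KO, blue IgE, red IL-33, and filled symbols have an adjusted p under 0.05 in limma. Lmo2 lies at -1.70 and Etv6 at 1.57 with IL-33 in WT cells, and no red diamond is filled.

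The genes whose levels ran most like each member that passed are given as descriptions, by the Pearson correlation over 18 arrays after each array number's mean was removed. The 18 points share 6 groups, so stimulus and genotype enter each value. Lyl1 ran closest with Golm1 (0.97) and Add3 (0.96) and most opposite to Nfkbia (-0.98). Gfi1 ran closest with Tnfsfm13 (0.96) and Vamp4 (0.93) and most opposite to Hbb-bt (-0.92). Tal1, which passed only in an added comparison, ran closest with Stard5 (0.94) and Atp5c1 (0.93) and most opposite to Mmadhc (-0.92). Gata2 ran closest with Gpx1 and Zfp667 (both 0.90) and opposite to Mdfic (-0.93), and Ikzf1 with Capn2 (0.93) and Id2 (0.92) and opposite to Ms4a7 (-0.93).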

How the data were processed

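RNA was extracted with a QIAGEN RNeasy kit and labelled with biotin for Illumina arrays, per the labels' protocols. The deposited intensity values, 1 per probe and array, were not normalized and still held the background, per the file headers and the values. A detection p-value stood beside each deposited intensity. The authors also deposited a log2 table whose columns share 1 distribution, so it was quantile normalized; its background method is not given in the sources used here.

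Intensities went through limma's neqc (version 3.58.1, R 4.3.3; normexp background, quantile normalization, log2, offset 16). On the incomplete array, probes took their rank from the authors' log2 values and their level from the shared distribution. A probe was kept where its detection p was under 0.05 in 3 or more of the 17 complete arrays, and the brightest probe of each gene gave 10529 genes. Of 45281 probes, 34885 carried 1 gene symbol, 18 several, and 10378 were unnamed here. A mean per group was fitted in limma over all 18 arrays with 12 residual degrees of freedom and trended eBayes, with Benjamini-Hochberg adjustment at 0.05 within each of 8 comparisons. A further 2, ST2KO against WT with each stimulus, were added after levels were seen. The members and gene lists were chosen with earlier results of these data known. Named genes were all members, up to 4 genes of each list with the smallest adjusted p and up to 2 abundant ones not past the threshold, and for likeness the 2 highest and the lowest correlations. Where a gene's probes differed, each was fitted.

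Same-numbered arrays deviated together from their group means, with correlations of 0.51 to 0.92 within a genotype (18 pairs) and 0.40 to 0.73 between genotypes (27 pairs). The same-numbered array was the closest of the other group in 18 of 18 pairs within a genotype and in 20 of 27 between genotypes. Each exception was numbered 1 or 2. The main fit, its intervals and the fits with arrays left out did not use these numbers. Only the replicate block took the numbers as pairs, which is less certain between genotypes, where the blocked genotype calls rest on it. Blocked values stand beside results whose call they change, and beside member calls that were lost without single arrays. Numbers were blocked within genotype for stimuli. The fit was tried on simulated data with noise drawn independently for each array, which lacks the shared deviations of same-numbered arrays. Alternatives were background, scaling, the authors' values, filter, probe rule, samples fitted, trend, block and arrays left out. Motifs and figures were made in Python 3.11.15 with matplotlib 3.10.9.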

Additional observations from a re-analysis of the deposited data

Results flagged for a closer look

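The IL-33 response differed between the genotypes for 2 members, by a limma test of the interaction itself. For Lyl1 the response in ST2KO minus that in WT was 1.23 on the log2 scale (SE 0.19; adjusted p = 0.00483), from -1.29 in WT cells and -0.06 in ST2KO cells. For Gfi1 it was 1.43 (SE 0.24; adjusted p = 0.0066), from -1.37 in WT cells and 0.05 in ST2KO cells. Over the 12 arrays left out in turn the adjusted p ranged from 0.000663 to 0.0183 for Lyl1 and from 0.00409 to 0.0248 for Gfi1. Groups of 3 arrays were too small for a search for outlying arrays.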

How the results depend on the processing

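The IL-33 calls of Lyl1 and Gfi1 (in WT cells, in the genotype difference of the response and in ST2KO against WT with IL-33) kept their direction and passed under all 10 alternatives and without each array. These alternatives are not independent checks. The probe rule could not change the values of Lyl1 or Gfi1, which had no further probe. The authors' values keep the rank order of the intensities within each array. No member value that had passed turned its direction. The number of members past the threshold with IgE in WT cells, 3, became 0 with median scaling, 1 without the detection filter, 1 without the intensity trend and 6 without the arrays numbered 3, and ranged from 0 to 1 with 1 array left out. With IL-33 in WT cells 2 became 4 without the arrays numbered 3, Mitf among them, which neither remaining IL-33 array detected. For IL-33 against IgE, 3 became 1 when the groups compared were fitted alone, which also lost Gfi1 (adjusted p = 0.0733), and 5 without the arrays numbered 3, again with Mitf. With IgE in ST2KO cells 3 became 1 with median scaling, 1 without the filter, 0 with the compared groups alone and 6 without the arrays numbered 3, and ranged from 0 to 2 with 1 array left out. For unstimulated ST2KO against WT 0 became 1 (Gfi1) with the replicate block and 1 without the arrays numbered 3. Median scaling ended the IgE calls of Gata2 (adjusted p = 0.0952), Lyl1 (0.14) and Ikzf1 (0.105) in WT and of Lyl1 (0.319) and Gfi1 (0.25) in ST2KO cells, and the Tal1 call under IL-33 (0.197). The cause was not tested.

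Over all genes the replicate block moved the calls from 1249 to 3426 (IgE, WT), 1246 to 3315 (IL-33, WT), 466 to 1667 (IL-33 against IgE), 1326 to 3558 (IgE, ST2KO), 1 to 21 (ST2KO against WT), 286 to 1639 (IL-33 interaction), 1 to 14 (ST2KO against WT with IgE) and 1217 to 2920 (the same with IL-33). Without the arrays numbered 3 these became 3912, 4069, 2199, 3880, 533, 2563, 423 and 3888, and the IgE interaction went from 0 to 15. The compared groups alone gave 755 (IL-33, WT), 294 (IL-33 against IgE), 483 (IgE, ST2KO), 141 (IL-33 interaction) and 329 (ST2KO against WT with IL-33). Median scaling gave 868 for IgE in ST2KO cells, and no filter 145 for the IL-33 interaction. The loss of 1 array moved these counts by over 1.5 times for WT unstimulated or IgE replicates 1 and 2 (IgE, WT; 594 to 756), WT unstimulated or IL-33 replicates 1 and 2 (IL-33, WT; 624 to 784), WT IgE or IL-33 replicates 1 and 2 (IL-33 against IgE; 224 to 261), ST2KO unstimulated replicate 2 and IgE replicates 1 and 2 (IgE, ST2KO; 658 to 753), replicates 1 and 2 of each of its 4 groups (IL-33 interaction; 99 to 161, and 577 without WT IL-33 replicate 3) and WT IL-33 replicates 1 and 2 (ST2KO against WT with IL-33; 573 and 597). The block changed no call of a member besides those given with the results. Median scaling moved the median of all genes from -0.02 to -0.16 (IL-33, WT), from 0.01 to -0.12 (ST2KO against WT), from -0.01 to 0.09 (IgE interaction) and from 0.02 to 0.20 (IL-33 interaction). It moved the share of higher calls from 44.9% to 28.8% (IgE, WT), 43% to 18.8% (IL-33, WT), 48.7% to 37.7% (IL-33 against IgE), 46.2% to 78% (IL-33 interaction) and 55.6% to 71.3% (ST2KO against WT with IL-33). Low signal limits Cebpa and Mitf.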
